A study of Mus musculus with 36 samples.

Results

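Transcripts detected by 2 TaqMan assays, Mm01208559_m1 and Mm00452283_m1, were followed across the ileal mucosa of mice with different gut bacteria. They are 2 of the 224 assays of a custom real-time PCR panel. They were chosen from measured levels: each was lower in conventional than in mono-associated samples, and the mono-associated and conventional means lay on either side of germfree. Those differences are therefore described here without a test. No file at hand links a catalogue ID to a gene. Both assays are therefore given by ID alone, and no sequence is shown. In the supplier's naming, the ending shared by both IDs marks a probe placed across an exon junction, which favours spliced RNA over genomic DNA.

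The study held 4 groups of 9 samples of mouse ileal mucosa, which lines the end of the small intestine. Germfree mice carried no microbes and served as the control. The mono-associated groups carried a single strain, either E. coli CEC (the labels leave CEC unexplained) or the probiotic E. coli Nissle, and their labels state a colonisation of 21 with no unit. Conventional mice carried an ordinary complex microbiota, and their labels give no colonisation number. The labels do not state mouse strain, age or sex. Pooling of RNA is mentioned in the design text although each title has its own number, so the spread behind the p-values may be technical in part.

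The ileal epithelium is a single cell layer of absorptive enterocytes with goblet, Paneth and enteroendocrine cells between them, above a lamina propria rich in immune cells. Bacteria at this surface are sensed through pattern recognition receptors, and epithelial genes for host defence, lipid and bile acid handling and xenobiotic metabolism are known to differ between germfree and colonised mice. In whole mucosa, fewer cells of a type and less RNA per cell cannot be told apart.

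Real-time PCR reports Ct, the cycle number at which a well's fluorescence passes a set limit, and abundant transcripts have a low Ct. Levels are given as a log2 relative level, which subtracts the assay's Ct from the sample's mean Ct over 146 assays with a value everywhere. A step of 1 on this scale is a doubling at full PCR efficiency. Most samples gave a Ct for 214 to 222 assays, while CEC replicate 6 gave 198 and Nissle replicate 6 gave 175. The profile of CEC replicate 7 stood apart from its label's group: for 35 of its 217 measured assays the distance to the median of the other CEC samples exceeded 3 log2 units, against 0 to 8 assays in the other 35 samples. Results that rest on CEC replicate 7 and Nissle replicate 6 are given with and without them.

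Mm01208559_m1 was highest with a single E. coli strain and lowest with a complex microbiota. In germfree samples its log2 relative level ran from -5.29 to -2.56 with a median of -4.33, and the mean was -3.96 ± 1.0 (SD, n = 9). Nissle samples ran from -2.69 to -1.23 with a median of -1.87, and the mean was -1.94 ± 0.54 (SD, n = 8, since the well of Nissle replicate 6 did not amplify). In 7 of these 8 samples the level exceeded every germfree sample.

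CEC samples ran from -7.04 to -0.56 with a median of -2.36 and a mean of -2.49 ± 1.85 (SD, n = 9). The lowest value belongs to CEC replicate 7, which lay below every germfree and every conventional sample, while 6 of the 9 CEC samples lay above every germfree sample. Leaving out CEC replicate 7 and Nissle replicate 6, which also changes the scaling to the 179 assays then measured throughout, the CEC mean was -1.97 ± 0.73 (SD, n = 8) and 7 of 8 samples exceeded the germfree range.

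Conventional samples ran from -6.37 to -3.61 with a median of -5.43 and a mean of -5.27 ± 0.81 (SD, n = 9). Of these, 5 lay below the lowest germfree sample, and conventional replicate 2, at -3.61, lay above the germfree mean. The conventional samples were all below the mono-associated samples apart from CEC replicate 7. In order of means the groups ran Nissle, CEC, germfree and conventional. The Nissle range lay within the CEC range. The CEC range also held the whole germfree range, through CEC replicate 7, while the germfree range overlapped with the top of the conventional range and the bottom of the Nissle range.

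**Figure D1:**
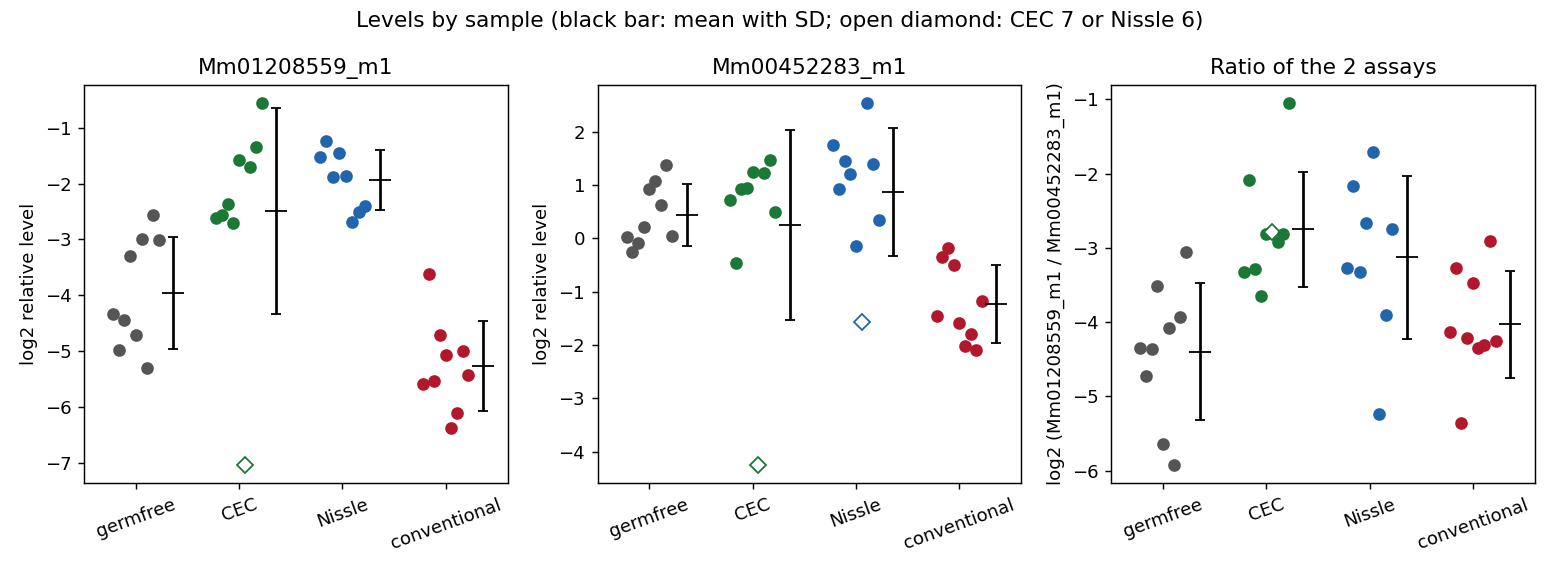
Each point is 1 sample; the left and middle panels give the log2 relative level of each assay and the right panel the log2 ratio of Mm01208559_m1 to Mm00452283_m1, by group, with the mean and SD in black and CEC replicate 7 and Nissle replicate 6 as open diamonds. Mm01208559_m1 averaged -1.94 in Nissle and -5.27 in conventional samples, and CEC replicate 7 lay at -7.04 in the left panel and -4.25 in the middle panel, while its ratio of -2.79 sat among those of the other CEC samples.

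For Mm01208559_m1 the difference between conventional samples and the mono-associated mean was -3.05 ± 0.47 log2 units (SE, from the fit to all samples), an 8.28-fold lower level. The mono-associated mean stood 1.74 ± 0.47 above germfree, and the conventional mean differed from germfree by -1.31 ± 0.53. After removal of CEC replicate 7 and Nissle replicate 6 these differences were -3.32 ± 0.31, 1.96 ± 0.31 and -1.36 ± 0.35. The sides of germfree on which the groups lay did not change under any of the 5 scalings tried with all samples, where the mono-associated difference ran from 1.71 to 1.92 and the conventional one from -1.31 to -1.10. These leave out the Nissle replicate 6 well that did not amplify. With that well filled in, the mono-associated mean stood 1.37 above germfree. The conventional minus mono-associated difference was then -2.68, and both were the smallest of all settings run.

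Mm00452283_m1 was lower in conventional samples, while its mean with a single strain lay close to germfree and depended on which samples were kept. Germfree samples ran from -0.26 to 1.37 with a median of 0.21 and a mean of 0.44 ± 0.58 (SD, n = 9). Conventional samples ran from -2.09 to -0.18 with a median of -1.46 and a mean of -1.24 ± 0.73 (SD, n = 9), and 8 of the 9 lay below the lowest germfree sample. The conventional and germfree ranges therefore hardly overlapped.

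Nissle samples of Mm00452283_m1 ran from -1.56 to 2.54 with a median of 1.21 and a mean of 0.88 ± 1.20 (SD, n = 9). The lowest of them was Nissle replicate 6, and 4 of the 9 lay above the germfree range. CEC samples ran from -4.25 to 1.46 with a median of 0.92 and a mean of 0.25 ± 1.78 (SD, n = 9). CEC replicate 7 was again the lowest, and only 1 CEC sample exceeded the highest germfree sample. The CEC and Nissle ranges each held the whole germfree range; their samples below it were CEC replicates 2 and 7 and Nissle replicate 6.

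For Mm00452283_m1 the difference between conventional samples and the mono-associated mean was -1.80 ± 0.46 log2 units (SE), a 3.49-fold lower level, and that between conventional and germfree samples was -1.67 ± 0.53. The mono-associated mean stood 0.13 ± 0.46 above germfree, with CEC at -0.18 and Nissle at 0.44 relative to germfree. Under quantile normalization the mono-associated difference was -0.02, so the mean was then not above germfree. Once CEC replicate 7 and Nissle replicate 6 were left out it was 0.50 ± 0.28, with CEC at 0.30 and Nissle at 0.70, and the conventional minus mono-associated difference was -2.22 ± 0.28. The placement of Mm00452283_m1 on either side of germfree thus rested mainly on its lower level in conventional samples. With all samples the mono-associated side of it was smaller than its SE. Without CEC replicate 7 and Nissle replicate 6 it exceeded its SE, with Nissle at 0.70 ± 0.33 and CEC at 0.30 ± 0.33 (SE).

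A scaling that subtracts 1 value per sample leaves the ratio of the assays within a sample as it is in raw Ct, whereas quantile normalization changes it. The log2 ratio of Mm01208559_m1 to Mm00452283_m1 was -4.40 ± 0.93 (SD, n = 9) in germfree, -2.75 ± 0.77 (SD, n = 9) with CEC, -3.13 ± 1.10 (SD, n = 8) with Nissle and -4.03 ± 0.72 (SD, n = 9) in conventional mice. Relative to germfree the ratio was thus 1.46 ± 0.36 log2 units (SE) higher with a single strain and 0.36 ± 0.42 higher in conventional samples. In conventional samples the levels of both assays were lower by similar amounts, whereas in mono-associated samples mainly Mm01208559_m1 was higher. In CEC replicate 7 the ratio was -2.79, close to the CEC median of -2.82, since both assays were lower there by similar amounts.

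**Figure D2:**
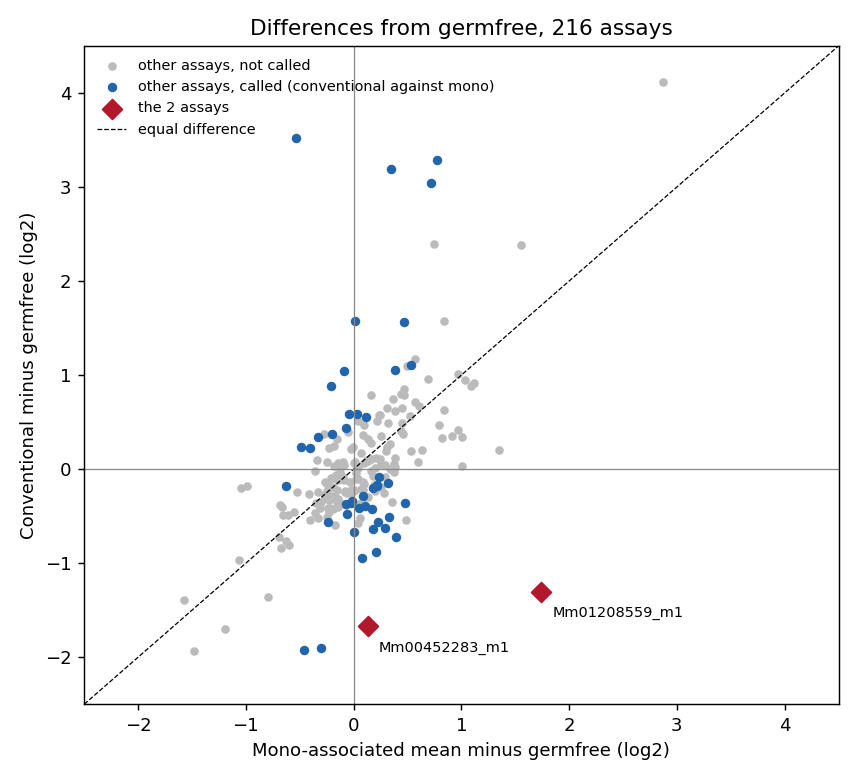
Each point is 1 of 216 assays, with the mono-associated mean minus germfree on the horizontal axis and conventional minus germfree on the vertical axis, both as log2 differences that share the germfree samples; blue points passed limma's test between conventional and mono-associated samples and diamonds are the 2 assays. Mm01208559_m1 lies at 1.74 and -1.31 and Mm00452283_m1 at 0.13 and -1.67, below the line of equal difference.

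Among all 216 assays with at least 5 values in every group, these assays had the lowest differences between conventional samples and the mono-associated mean. Next in order were Mm00480431_m1 at -1.60, Mm00489956_g1 at -1.47 and Mm00495520_m1 at -1.14, and the median over the panel was -0.07. With all samples the first 2 of these lay below germfree in mono-associated samples as well, at -0.31 and -0.46. Mm00495520_m1 had the other partial pattern: it was 1.35 above germfree in mono-associated samples and 0.20 above it in conventional ones, with SDs of 0.88 to 2.23 within groups. Without CEC replicate 7 and Nissle replicate 6 the same 3 assays followed the members. The mono-associated means of Mm00480431_m1 and Mm00489956_g1 then lay close to germfree, at -0.09 and -0.07.

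Placement on either side of germfree was common in the panel, but mostly small. Mono-associated means lay above and conventional means below germfree for 44 of 216 assays (20.4%), and for 27 to 41 assays under the other 4 scalings. In the comparison of conventional samples with the mono-associated mean, limma called 46 assays (21.3%) at an adjusted p under 0.05, of which 27 were lower (12.5%) and 19 higher (8.8%) in conventional samples. Other scalings changed this split, to 13 lower and 24 higher with the median, 13 lower and 28 higher with the 20 steadiest assays, 16 lower and 19 higher after quantile normalization, and 16 lower and 20 higher for raw Ct. Once CEC replicate 7 and Nissle replicate 6 had been removed the count was 71 of 215 assays (33%), 41 lower (19.1%) and 30 higher (14%). Shares of this size stand beside the members only as background, since the members were chosen on the same contrast.

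Leaving the members aside, 18 assays were both called lower and placed on either side of germfree, against 9 with the median scaling, 7 with the 20 steadiest assays, 8 under quantile normalization, 12 with raw Ct and 25 without CEC replicate 7 and Nissle replicate 6. The largest were Mm00484138_m1, with a difference of -1.11 (limma, adjusted p = 0.0174), Mm00471115_m1 at -1.08 (limma, adjusted p = 0.00803) and Mm00771682_g1 at -1.02 (limma, adjusted p = 0.00652). Their mono-associated means stood only 0.39, 0.20 and 0.08 above germfree, and that of Mm00771682_g1 was -0.21 relative to germfree without CEC replicate 7 and Nissle replicate 6. Of the 18, only Mm01318974_m1 was called and so placed under all 5 scalings, and also without CEC replicate 7 and Nissle replicate 6. Its difference between conventional and mono-associated samples was -0.91 (limma, adjusted p = 0.000915), with the mono-associated mean 0.29 above and the conventional mean 0.63 below germfree (log2 difference -0.63).

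The strains could be compared with each other by a test, because the choice of the assays did not use that contrast. Mm01208559_m1 was 0.55 ± 0.55 log2 units higher with Nissle than with CEC (SE; 95% confidence interval -0.57 to 1.67; limma, adjusted p = 0.690), and 6 of 8 Nissle samples lay above the CEC mean. On removal of CEC replicate 7 and Nissle replicate 6 the difference was 0.02 (-0.73 to 0.77; limma, adjusted p = 0.987), and 5 of 8 Nissle samples lay above the CEC mean. Mm00452283_m1 was 0.62 ± 0.53 higher with Nissle (-0.46 to 1.71; limma, adjusted p = 0.682), with 7 of 9 samples above the CEC mean. Without CEC replicate 7 and Nissle replicate 6 the difference was 0.40 (-0.29 to 1.09; limma, adjusted p = 0.840), with 6 of 8 samples above the CEC mean. The removals moved it in opposite directions, to 0.06 without CEC replicate 7 alone (limma, adjusted p = 0.968) and 0.95 without Nissle replicate 6 alone (limma, adjusted p = 0.669). For Mm01208559_m1 the difference was -0.02 without CEC replicate 7 alone (limma, adjusted p = 0.995). Neither difference passed the test, and the intervals leave room for differences of up to 0.77 and 1.09 log2 units even without the outlying samples. Of all 216 assays limma called 1 (0.463%) between the strains, with 12 at an unadjusted p under 0.05. Fitted without CEC replicate 7 and Nissle replicate 6, it called 0 of 215 (0%), with 14 at an unadjusted p under 0.05.

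Whether the assays vary together among samples of the same group was examined on deviations from the group means. Over the 35 samples with both values, Pearson's r was 0.697 (permutation within groups, two-sided, p = 0.00549) and Spearman's rho was 0.424 (permutation p = 0.0126). This relation rested on CEC replicate 7. Without it and Nissle replicate 6 the values were r = 0.254 (permutation p = 0.144) and rho = 0.303 (permutation p = 0.0910) over 34 samples. With the 2 samples farthest from the median of Mm01208559_m1 left out, CEC replicate 7 and conventional replicate 7, r was 0.239 (permutation p = 0.176). With raw Ct no scaling value is shared, but the amount of template in a sample enters both assays. There r was 0.741 with all samples, CEC replicate 7 included. Without the 2 samples whose deviations in Mm01208559_m1 lay farthest from the median, raw Ct gave 0.435 and the main scaling 0.379, with group means left as they were.

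Within the groups taken one by one the relation was not uniform. In CEC samples r was 0.910 (exact permutation p = 0.0291, adjusted over the 4 groups 0.117; rho = 0.50, exact permutation p = 0.178, adjusted 0.355). Without CEC replicate 7 it was 0.263 (exact permutation p = 0.541) in the remaining 8. In conventional samples r was 0.566 (exact permutation p = 0.109, adjusted 0.218; rho = 0.383, exact p = 0.313, adjusted 0.389) and in germfree samples 0.411 (exact permutation p = 0.262, adjusted 0.349; rho = 0.50, exact p = 0.178, adjusted 0.355). In Nissle samples r was -0.255 (exact permutation p = 0.543, adjusted 0.543; rho = -0.357, exact p = 0.389, adjusted 0.389). Leaving out the 2 samples of each group farthest from its median of Mm01208559_m1 changed r to -0.255 in germfree, 0.656 with CEC, 0.475 with Nissle and 0.180 in conventional mice. With raw Ct the same rule gave -0.281, 0.754, -0.370 and 0.189 in that order. The raw Nissle r was -0.395 before it, so the change in Nissle samples depended on the scaling. Removing the most extreme of so few samples narrows the range, so these changes cannot show that r rested on particular samples. Covariation of the assays within groups was not shown once CEC replicate 7 was left out.

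**Figure D3:**
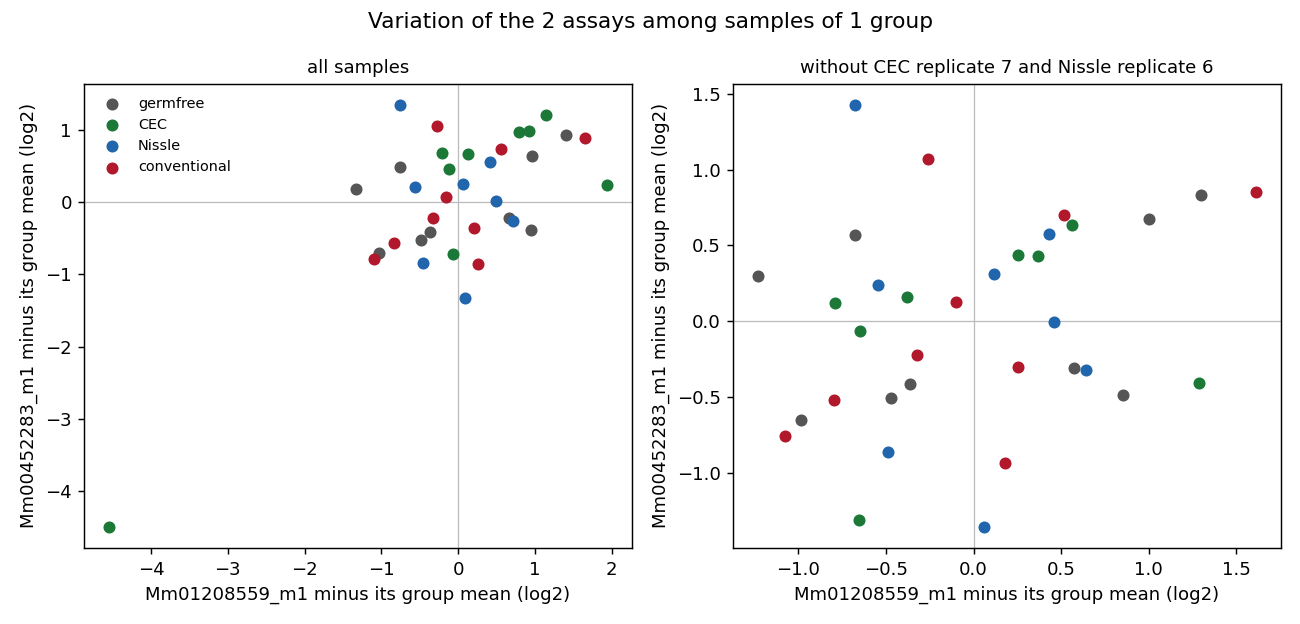
Each point is 1 sample, placed by its deviation from its group mean in Mm01208559_m1 (horizontal) and in Mm00452283_m1 (vertical), in log2 units, with all 35 samples that had both values on the left and the 34 left without CEC replicate 7 and Nissle replicate 6 on the right. CEC replicate 7 lies alone at the lower left, and r is 0.697 on the left and 0.254 on the right.

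The mean Ct used for scaling moved with both members through CEC replicate 7. It varies with the amount of template but also with the levels of the 146 assays in it, which include Mm00452283_m1. The within-group deviations of Mm01208559_m1 and Mm00452283_m1 had an r of -0.448 (n = 35) and -0.420 (n = 36) with it, and of -0.08 and -0.12 over the 34 samples without CEC replicate 7 and Nissle replicate 6. CEC replicate 7 had the highest mean Ct of all samples, at 21.8. It was also the sample with 35 of 217 assays far from the other CEC samples, so its mean Ct need not stand for template alone. The part of this in the covariation was not tested.

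The assays that followed each member were ranked by the same measure, the r of deviations from group means over at least 30 shared samples, among 212 assays. All of them share samples and the scaling value, and the r values are descriptions of these samples. The r values below are those without CEC replicate 7 and Nissle replicate 6, unless stated, whereas levels are those with all samples. Mm01208559_m1 was followed most closely by Mm00614693_m1 (r = 0.762), Mm01285814_g1 (0.713), Mm00472520_m1 (0.692), Mm00431749_m1 (0.690) and Mm01326466_m1 (0.675). With all samples the highest were Mm01285814_g1 (0.890), Mm00436443_m1 (0.856), Mm00431839_m1 (0.851), Mm00445980_m1 (0.847) and Mm00472520_m1 (0.847), so 2 of the 5 names were kept. Over all 212 assays the median r with Mm01208559_m1 was -0.09, and 32 assays had an r above 0.5.

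For Mm00614693_m1 the r with Mm01208559_m1, over at most 9 samples a group, was 0.832 in germfree, 0.561 with CEC, 0.823 with Nissle and 0.805 in conventional mice. CEC replicate 6 had no value for Mm00614693_m1. The assay was chosen for its high r over these same samples, so the values by group are no separate support. Its own group means, with all samples, ran from 1.11 ± 0.87 (SD, n = 9) in conventional to 1.73 ± 0.72 (SD, n = 9) in Nissle samples, with 1.36 ± 0.80 (SD, n = 9) in germfree and 1.57 ± 0.80 (SD, n = 8) in CEC samples. With all samples its conventional minus mono-associated difference did not pass the test (limma, adjusted p = 0.221) and was -0.54 log2 units. Without CEC replicate 7 and Nissle replicate 6 it was -0.73 (limma, adjusted p = 0.0358), with the mono-associated mean at 0.43 and the conventional mean at -0.30 relative to germfree. The same differences of Mm01208559_m1 were larger, at -3.32, 1.96 and -1.36. In germfree samples Mm01285814_g1 had the closest tie of the named assays, with an r of 0.894. Its r was 0.669 in CEC, 0.457 in Nissle and 0.575 in conventional mice.

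Mm00452283_m1 was followed by a different set. Highest were Mm00461434_m1 (r = 0.854), Mm00495520_m1 (0.817), Mm01318974_m1 (0.763), Mm00489956_g1 (0.746) and Mm00530567_m1 (0.701), of which 3 were also among the 5 highest with all samples, beside Mm00484138_m1 (0.842) and Mm02603337_m1 (0.826). The median r over 212 assays was -0.04, and 10 assays had an r above 0.5. None of these 10 was among the 32 assays with an r above 0.5 for Mm01208559_m1, that is 0 shared assays. Lists of 10 and 32 among 212 assays would share few by chance alone, and the overlap was not tested. With all samples 24 assays were above 0.5 for both members (24 of 40 and 24 of 32). Mm00452283_m1 itself ranked 60 among the followers of Mm01208559_m1.

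**Figure D4:**
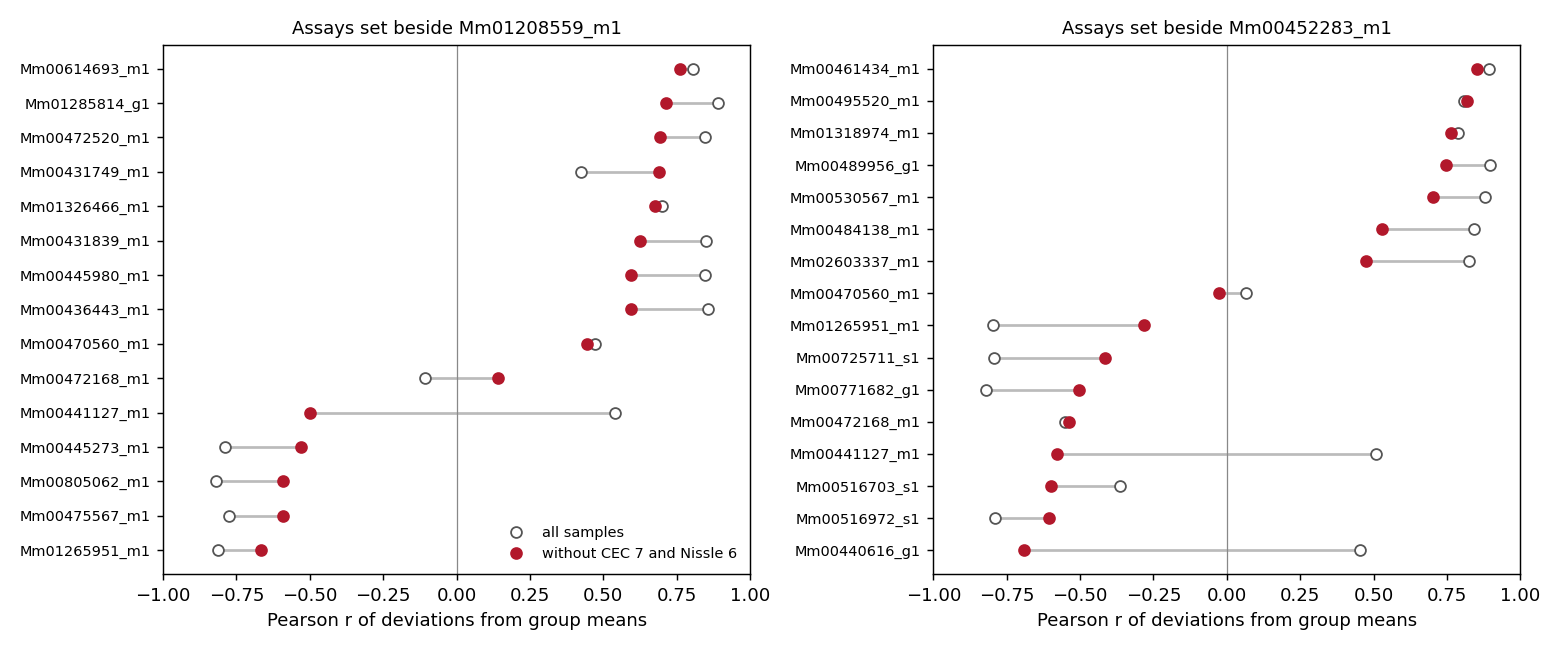
Named assays are listed by their Pearson r with Mm01208559_m1 (left) and Mm00452283_m1 (right), computed on deviations from group means with all samples (open circles) and without CEC replicate 7 and Nissle replicate 6 (filled circles). Mm00614693_m1 (0.762) and Mm00461434_m1 (0.854) are highest without those samples, and Mm00441127_m1 changes sign in both panels.

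The 5 followers of Mm00452283_m1 differed in their group means. Without CEC replicate 7 and Nissle replicate 6 the conventional mean lay below germfree for Mm00461434_m1 (-0.40), Mm01318974_m1 (-0.67) and Mm00489956_g1 (-1.97), and above it for Mm00495520_m1 (0.16) and Mm00530567_m1 (0.29). The mono-associated mean lay above germfree for all of them except Mm00489956_g1 (-0.07). Mm00461434_m1 had an r of 0.908 with it in germfree, 0.966 with CEC, 0.965 with Nissle and 0.554 in conventional mice. With all samples its level was -0.15 ± 0.25 (SD, n = 9) in germfree, -0.07 ± 1.82 (SD, n = 9) with CEC, 0.47 ± 0.55 (SD, n = 9) with Nissle and -0.50 ± 0.16 (SD, n = 9) in conventional mice. CEC replicate 7, at -4.87, was the lowest sample for this assay too, and Nissle replicate 6, at -0.51, was the lowest of the Nissle samples. Without those samples its mono-associated mean stood 0.65 above germfree and its conventional mean 0.40 below it (log2 difference -0.40).

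Mm00495520_m1 had an r with Mm00452283_m1 of 0.780 in germfree, 0.977 with CEC, 0.907 with Nissle and 0.832 in conventional mice. It was chosen for its high r over all 4 groups together, so these values are no separate support. In CEC samples it ran from -8.06 to -1.74, and in Nissle samples from -7.31 to -0.89, with the lowest values in CEC replicate 7 and Nissle replicate 6. Mm01318974_m1, the 1 assay of those 18 that was called lower and placed on either side of germfree under all 5 scalings, had an r of 0.880 in germfree, 0.970 in CEC and 0.938 in Nissle but 0.10 in conventional samples. Mm00489956_g1 had an r of 0.952 in conventional samples and -0.14 in CEC samples. Its conventional mean differed from germfree by -1.92 with all samples.

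**Figure D5:**
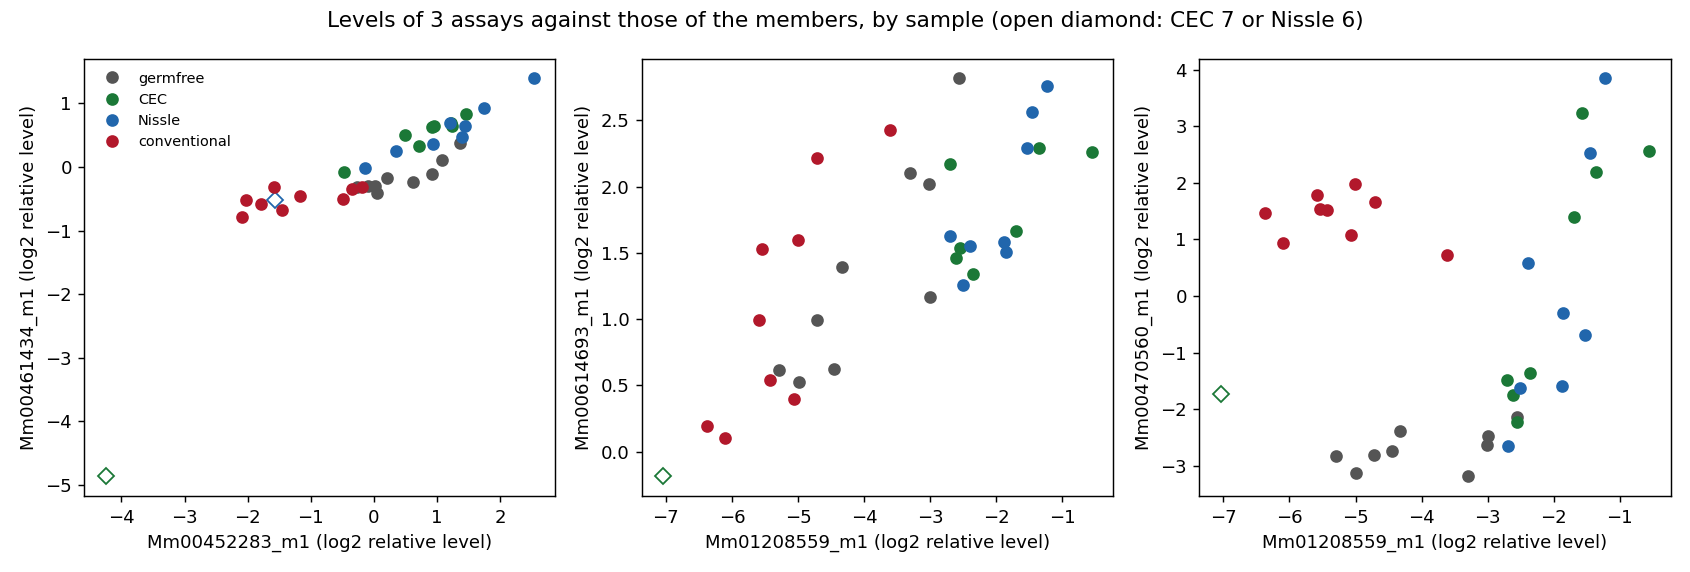
Each point is 1 sample with both values, coloured by group; the panels plot the log2 relative levels of Mm00461434_m1 against Mm00452283_m1, and of Mm00614693_m1 and Mm00470560_m1 against Mm01208559_m1. Mm00461434_m1 tends to rise with Mm00452283_m1 within groups, but the groups do not share 1 line. At a Mm00452283_m1 of 0.92, Mm00461434_m1 is -0.12 in germfree replicate 22 and 0.64 in CEC replicate 3. Conventional samples combine a high Mm00470560_m1 (0.73 to 1.97) with Mm01208559_m1 at -6.37 to -3.61.

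Assays lowest in r with the members included Mm01265951_m1 (-0.665) and Mm00475567_m1 (-0.592) for Mm01208559_m1, and Mm00440616_g1 (-0.691) and Mm00516972_s1 (-0.607) for Mm00452283_m1. For Mm00440616_g1 the sign depended on the outlying samples, since r was 0.452 with all 36. The same held for Mm00441127_m1, which had an r with Mm01208559_m1 of 0.538 with all samples and -0.498 without CEC replicate 7 and Nissle replicate 6, and of 0.508 and -0.579 with Mm00452283_m1. In conventional samples, which hold neither of the outlying samples, its r was -0.685 with Mm01208559_m1 and -0.814 with Mm00452283_m1 on the scaling of all samples.

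Mm00470560_m1 averaged -2.70 ± 0.34 (SD, n = 9) in germfree and 1.41 ± 0.41 (SD, n = 9) in conventional samples, and it was uneven with a single strain, at 0.09 ± 2.20 (SD, n = 9) with CEC and 0.26 ± 2.19 (SD, n = 9) with Nissle. Within CEC samples other than replicate 7 its r with Mm01208559_m1 was 0.894, and within Nissle samples it was 0.704. In CEC replicates 6, 8, 9 and 10 the level of Mm01208559_m1 was -1.57, -1.69, -1.35 and -0.56 and that of Mm00470560_m1 was 3.22, 1.40, 2.19 and 2.56. These are the 4 highest CEC samples in both assays, as seen after the values were known. In conventional samples, which had the lowest mean of Mm01208559_m1, the r was -0.380. For Mm00452283_m1 the corresponding r was 0.524 in CEC and -0.472 in Nissle samples. Mm00472168_m1, with the highest conventional minus mono-associated difference of the panel at 4.06 log2 units with all samples, had an r of 0.14 with Mm01208559_m1 and -0.537 with Mm00452283_m1.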

How the data were processed

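Per the labels' protocols, RNA was isolated with the mirVana kit and measured as cDNA with TaqMan assays on OpenArray cards. The authors deposited Ct values that are raw and not normalized, per the file headers, which also describe the table as a truncated example. A Ct of 40 marked no amplification and was treated as missing. The labels do not state the Ct threshold or the efficiency. Columns were matched to samples by title. Of the assay IDs, none was found in the reference gene tables at hand.

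Here, minus Ct was scaled to the mean of the assays measured in all samples analysed. limma 3.58.1 in R 4.3.3 (lmFit and eBayes, defaults) was fitted to all 36 samples over assays with at least 5 values in every group, with 1 term per group, two-sided, Benjamini-Hochberg adjusted. Both the limma and the permutation step were tested on simulated data. Permutations used 100000 resamples within groups, or all pairings within 1 group. The members, and the lists and rules around them, were chosen with earlier results of these data known. Named assays are the members, the next 3 in order, the 5 highest and 3 lowest by r with each member (with and without the outlying samples), called assays placed on either side of germfree, and 3 fixed assays. Alternatives covered scaling, outlying or single samples, undetermined wells, low signal, missing-value filters, weights, the samples fitted, eBayes settings, a permutation test and a replicate block. Other assays singled out were chosen after their values were seen.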

Additional observations from a re-analysis of the deposited data

Results flagged for a closer look

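CEC replicate 7 lay far from the other CEC samples in both assays, at -7.04 for Mm01208559_m1 and -4.25 for Mm00452283_m1. The gap to the nearest sample was 0.669 and 0.662 of the group's range. The number of assays measured was also far below the rest of the group in CEC replicate 6, at 198, and in Nissle replicate 6, at 175. About 1 in 20 groups would be marked this way by chance.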

How the results depend on the processing

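The conventional minus mono-associated differences kept their direction in all alternatives run for them. Differences from germfree were recomputed only for the scalings, the left-out samples, the undetermined wells and the low signal. All kept their direction there except the mono-associated minus germfree difference of Mm00452283_m1, at -0.02 under quantile normalization and up to 0.57 without both outlying samples. The count of assays called between Nissle and CEC fell from 1 to 0 under quantile normalization, with both outlying samples left out (either scaling), with undetermined wells filled in, with Ct above 28 missing, with only assays measured in all samples, in the permutation test per assay (8 at an unadjusted p under 0.05) and with the replicate block, and lay between 0 and 2 with single samples left out. limma had 8 to 16 assays at an unadjusted p under 0.05 in those settings. For conventional against mono-associated samples the count was 71 without both outlying samples and 95 with sample quality weights. Between the strains Mm01208559_m1 was -0.0160 without both outlying samples on the original scaling, -0.190 with its undetermined well filled in and -0.00678 with Ct above 28 missing, and -0.0160 to 0.794 with single samples left out; for Mm00452283_m1 that range was 0.0611 to 0.954. The r between the members was 0.254 or 0.283 without both outlying samples, 0.294 with Ct above 28 missing, which removes CEC replicate 7, 0.239 without the 2 farthest samples, and 0.283 (without CEC replicate 7) to 0.756 with single samples left out.

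Replicate numbers showed little sign of pairing: same-numbered samples of CEC, Nissle and conventional mice had deviations correlated from -0.404 to 0.329 over 25 pairs. Of the 25, 2 correlated best with their own number. Low correlation cannot show that the samples were handled unpaired. With the replicate block the Nissle against CEC differences were 0.747 and 0.771. Called assays then numbered 0 between the strains and 40 between conventional and mono-associated samples. The r between the members was 0.839 (permutation within groups, not within blocks, p = 0.00137). These block fits kept CEC replicate 7, on which the r between the members rested.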
